A study of Homo sapiens with 6 samples.

Results

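The *HOXB* cluster is the run of homeobox genes on the long arm of chromosome 17. All 10 of its members (*HOXB1* to *HOXB9* and *HOXB13*), chosen as the rows whose symbol is HOXB followed by a number only, are among the 20347 genes of the table. Their transcripts were measured by RNA-seq in PaTu8988t, an established human pancreatic ductal adenocarcinoma (PDAC) cell line. The control group was 3 replicates of PaTu8988t cells that had received the lentiviral CRISPR plasmid with an unspecific guide RNA. The authors describe puromycin selection for cells made with this plasmid, without a distinction between control and knockout cells. *SAMD1* encodes a nuclear protein that binds unmethylated CpG islands. The SAMD1 KO group was 3 clonally independent clones of the same line, made with guide RNAs against this gene. Each KO library is therefore 1 clone, whereas the control replicates are not described as separate clones, so the spread within the groups does not mean the same thing on both sides. The comparison asks which genes change their RNA level when SAMD1 is lost.

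HOX proteins are transcription factors that bind DNA through a homeodomain, mostly together with PBX and MEIS cofactors, and give cells their position along the body axis. The genes lie in clusters in which the order along the chromosome follows the order of expression from head to tail, with low numbers anterior and high numbers posterior. Polycomb and Trithorax group complexes keep the clusters silent or active, and retinoic acid is a known inducer of the anterior genes. In adult tissues and tumours the clusters stay partly active, in a pattern that depends on the origin of the cells.

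The members are related in sequence where they touch DNA. The stretch of the homeobox that encodes the DNA recognition helix is given below for all 10 genes, because it shows how close in sequence the genes are that the reads had to tell apart. All lie in the last coding exon, on the minus strand of chromosome 17 of GRCh38 (transcripts of GENCODE 44), and capitals mark bases that differ from the commonest base among the 10 genes.
HOXB1, chr17:48529676-48529705: tggttccagaaccgAcgAatgaagCAgaag
HOXB2, chr17:48543542-48543571: tggttTcagaaccggcgcatgaagCACaag
HOXB3, chr17:48550898-48550927: tggttccagaaccggcgcatgaagtACaag
HOXB4, chr17:48576824-48576853: tggttccagaaccggcgcatgaagtggaaA
HOXB5, chr17:48592269-48592298: tggttccagaaccggcgcatgaagtggaag
HOXB6, chr17:48596482-48596511: tggttccagaaccgAcgcatgaagtggaaA
HOXB7, chr17:48607917-48607946: tggttTcagaaccggcgcatgaagtggaaA
HOXB8, chr17:48613328-48613357: tggttccagaaccggAgGatgaagtggaaA
HOXB9, chr17:48622930-48622959: tggttTcagaaccggcgGatgaaAATgaag
HOXB13, chr17:48726829-48726858: tggttTcagaaccgCcgGGtCaaAGAgaag
*HOXB5* carried the commonest base at all 30 positions, and *HOXB4* differed at 1. *HOXB3*, *HOXB6* and *HOXB7* differed at 2 positions, *HOXB8* at 3, *HOXB1* and *HOXB2* at 4, *HOXB9* at 5 and *HOXB13* at 8. From the homeobox of *HOXB1* to that of *HOXB9* the cluster spans 93.3 kb, and a gap of 103.9 kb separates *HOXB9* from *HOXB13*.

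Outside this stretch the sequences are mostly distinct, with 1 exception that bears on the counts. In *HOXB2*, *HOXB8*, *HOXB9*, *HOXB1* and *HOXB13* no run of 50 bases of the exons occurred in another gene. *HOXB3* and *HOXB6* share annotated exons, so that 14.6% of the 50-base runs of *HOXB6* and 5.05% of those of *HOXB3* occurred in another *HOXB* gene. Antisense transcripts cover 16.3% of the exon bases of *HOXB6*, 5.29% of *HOXB3*, 3.93% of *HOXB5* and 3.54% of *HOXB2*. The strand setting of the counting is not given in the sources used here, so values of *HOXB3* and *HOXB6* in particular may hold reads of each other or of *HOXB-AS3*. The antisense transcripts *HOXB-AS1* to *HOXB-AS4* and the microRNA genes of the cluster were not analysed here.

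The 6 libraries held between 35589477 and 45172216 reads, and the values are normalized counts, that is reads divided by 1 size factor per library. The targeted gene, *SAMD1*, was lower in every clone, as labelled. It stood at 1950 to 2435 reads in the control libraries and at 884 to 1252 reads in the clones, a log2 fold change of -1.32 (SE 0.105, limma adjusted p = 0.000724). Transcripts of an edited gene can persist, so this value does not measure the protein. Of 6 epithelial markers, *KRT8*, *KRT18* and *EPCAM* were expressed in every library while *KRT19* was listed at 0 in all 6. The acinar markers *PRSS1*, *CPA1* and *AMY2A*, the fibroblast markers *DCN* and *LUM* and the leukocyte marker *CD3E* had no reads. Across all 12773 tested genes the median coefficient of variation was 4.06% among the controls and 10.5% among the clones. Tested genes had to average 10 normalized counts or more over the 6 libraries. The summed level of 5 fibroblast markers was 52.8 to 55 in the controls and 18 to 44.9 in the clones, that of 4 leukocyte markers 355 to 370 and 244 to 328, and that of 3 endothelial markers 77.8 to 84.8 and 33.6 to 83.6. The 5 summed duct and PDAC markers stood at 948 to 992 in the controls and 1418 to 2854 in the clones, and the 6 epithelial markers at 62727 to 65936 and 67655 to 108596. Called higher among them were *KRT18* (log2 fold change 0.52), *KRT7* (1.46), *SOX9* (1.16) and *GATA6* (2.00). The part of any of these in the *HOXB* values was not tested.

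The *HOXB* genes from *HOXB2* to *HOXB9* were expressed in control cells, and 7 of these 8 were up-regulated in SAMD1 KO cells. *HOXB8* rose most on the log2 scale (1.83), followed by *HOXB9* (1.74), *HOXB2* (1.56), *HOXB4* (1.46), *HOXB6* (1.26), *HOXB3* (1.00) and *HOXB5* (0.93). *HOXB7* lay above the controls in every clone but missed the fold cut-off. *HOXB1* and *HOXB13*, at the ends of the cluster, were not expressed in either group. Genes were called up-regulated with a log2 fold change above 0.5 and an unadjusted limma p below 0.01, a rule that called 5.77% of all tested genes higher and 2.08% lower. None of the 8 tested members was called lower. All 8 had a limma p below 0.05 in the upward direction, a looser limit for which the share of all tested genes was not counted. The median log2 fold change was 1.36 over the 8 tested members, against -0.0059 over all tested genes. In bulk RNA, more cells that express a gene and more RNA per cell cannot be told apart.

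**Figure D1:**
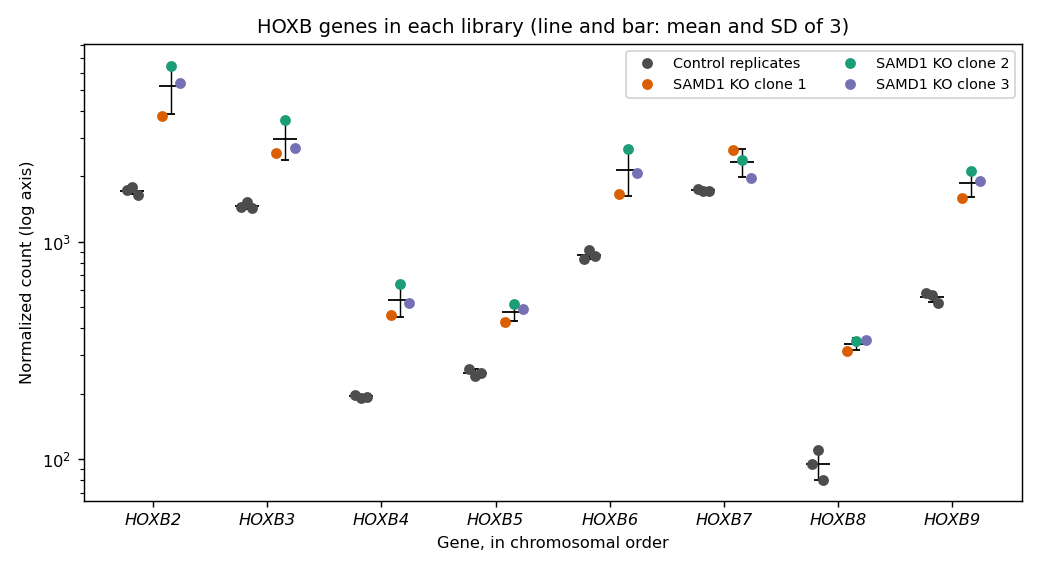
Normalized counts (log axis) of the 8 tested *HOXB* genes, in order along the chromosome, in the 3 control replicates (grey) and the 3 SAMD1 KO clones (coloured), with the mean and SD of each group. In all 8 genes every clone lies above every control replicate, by the smallest margin in *HOXB7* and by the largest in *HOXB8*.

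Among the anterior members, *HOXB1*, a regulator of hindbrain segment identity, was essentially silent. It had 2, 0 and 0 reads in control replicates 1 to 3 and 0, 1 and 0 reads in the clones 1 to 3, at or under the 3 reads that a count of 0 allows in a library, so no fold change is given. *HOXB2*, which acts in hindbrain patterning, was by contrast among the most abundant members. Its normalized counts were 1720.4, 1784 and 1647 in the controls and 3768, 6413 and 5375 in the clones 1, 2 and 3. The lowest clone had more than the highest control by 1.08 on the log2 scale, and clone 2 was the highest. The log2 fold change was 1.56 (SE 0.175, limma adjusted p = 0.00249), and the ratio of the group means was 3.02.

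*HOXB3*, which also patterns the hindbrain and neck region, followed with normalized counts of 1438, 1519 and 1429.6 in the controls and 2555, 3629 and 2709 in the clones. Clone 2 again stood above the other clones, and the groups did not overlap. The fitted log2 fold change was 1.00 (SE 0.127, limma adjusted p = 0.00389).

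The central members differed in how far they moved. *HOXB4*, known for expanding blood stem cells when overexpressed, had normalized counts of 198, 191 and 194 in the controls and 458, 638 and 522 in the clones. The coefficient of variation was 1.84% among the controls, less than the 7.47% that counting noise alone gives on average, and 16.9% among the clones. *HOXB4* rose by 1.46 on the log2 scale (SE 0.134, limma adjusted p = 0.00116). *HOXB5*, which acts in lung and enteric nervous system development, had a smaller rise, from 259, 241 and 249.7 to 426, 514 and 490.2. All 3 clones lay above the controls, with a coefficient of variation of 9.53%, and the log2 fold change was 0.93 (SE 0.105, limma adjusted p = 0.00258).

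*HOXB6*, a gene active in blood cell precursors, had normalized counts of 836, 919.7 and 859 in the controls and 1657, 2669.6 and 2069.7 in the clones. The groups were well apart, and the clones again fell in the order 2, 3, 1 from high to low. The log2 fold change was 1.26 (SE 0.159, limma adjusted p = 0.00384). The share of these reads that belongs to exons common to *HOXB3* and *HOXB6* was not tested.

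*HOXB7*, a gene often found expressed in carcinomas, stood apart from its neighbours. Its normalized counts were 1739.8, 1718 and 1704 in the controls, the tightest control group of all members with a coefficient of variation of 1.04%. The clones had 2653, 2365 and 1969.8, so that here clone 1 was the highest and clone 3 the lowest, and clone 3 exceeded the highest control by 0.179 on the log2 scale. The log2 fold change was 0.43 (SE 0.105, 95% interval 0.18 to 0.67, limma adjusted p = 0.0399), under the cut-off of 0.5. The value moved with the clones included. Without clone 3 the log2 fold change was 0.54 (limma adjusted p = 0.00536) and *HOXB7* was called, and without clone 1 it was 0.33 (limma adjusted p = 0.0411). The adjusted p stayed below 0.05 in only 2 of 6 fits when each library was left out in turn.

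*HOXB8*, which blocks the maturation of myeloid progenitors when overexpressed, was the least abundant expressed member and had the largest log2 fold change. Its normalized counts were 94.9, 111 and 80.2 in the controls and 315, 351 and 353 in the clones. The clones were closely grouped and the controls more scattered (coefficients of variation of 6.25% and 16%), the reverse of the other 7 tested members. Counting noise alone gives 5.18% and 10.6% at these depths. *HOXB8* thus rose by 1.83 on the log2 scale (SE 0.148, limma adjusted p = 0.000764).

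Of the posterior members, *HOXB9*, which acts in patterning of the thoracic skeleton, had normalized counts of 579, 567 and 523 in the controls and 1594, 2117 and 1894 in the clones. The lowest clone exceeded the highest control by 1.46 on the log2 scale. Its log2 fold change was 1.74 (SE 0.111), with the smallest limma adjusted p of the members (0.000334). *HOXB13*, a gene of the prostate and hindgut lineage beyond the gap in the cluster, had 0 reads in all 6 libraries, which allows up to 3 reads in each.

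All 8 tested members had every clone above every control replicate, a pattern that 19.2% of all tested genes showed in the upward direction and 18.6% in the downward direction. Under a stricter form, with every clone at least 0.5 above every control on the log2 scale, 7 of the 8 tested members passed, and 3.45% of all tested genes did. This form was added after the data had been examined. An exact two-sided permutation test of the 6 values gave p = 0.1 for each of the 8 tested members, the smallest value that 3 against 3 libraries can give. With an adjusted limma p below 0.05 in place of the unadjusted one, 7 members were called, against 5.34% of all tested genes.

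Most members ranked the clones alike. *HOXB2*, *HOXB3*, *HOXB4*, *HOXB5*, *HOXB6* and *HOXB9* had the same order, with clone 2 the highest, then clone 3 and then clone 1. In *HOXB8* clones 2 and 3 were close and clone 1 the lowest. Only *HOXB7* had clone 1 as its highest. The median log2 difference of the 8 tested members from the control mean was 1.03 in clone 1, 1.66 in clone 2 and 1.33 in clone 3. The summed normalized counts of the cluster, dominated by *HOXB2*, *HOXB3* and *HOXB7*, ran from 6687 to 7048.5 in the controls and stood at 13427, 18696 and 15383.5 in the clones. Leaving out clone 2 moved the median log2 fold change of the members the most among the clones, and over the 6 fits without 1 library it ran from 1.21 to 1.5.

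Levels of different genes were compared per kilobase of merged exons. In control cells *HOXB7* was the most abundant member at 1132 normalized counts per kb, ahead of *HOXB2* at 699 and *HOXB6* at 335. *HOXB9* and *HOXB3* came next at 215 and 197, with ranges that overlapped although *HOXB9* was the higher within each control library. *HOXB5* followed at 134, *HOXB4* at 96.9 and *HOXB8* at 39.6. In the clones *HOXB2* was first by the mean at 2111 per kb and *HOXB7* second at 1532, although their ranges over the clones overlapped. Within clone 1 the order was the reverse, with *HOXB7* at 1745 and *HOXB2* at 1534. *HOXB6* at 819 and *HOXB9* at 722 overlapped as well, although *HOXB6* was the higher within each clone. Then came *HOXB3* at 399, *HOXB4* at 269 and *HOXB5* at 256. The last pair overlapped, and *HOXB5* was slightly the higher within clones 1 and 3. *HOXB8* remained last at 141. The length used for *HOXB3*, 7.425 kb, includes many alternative exons, so its level per kb is a low estimate.

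**Figure D2:**
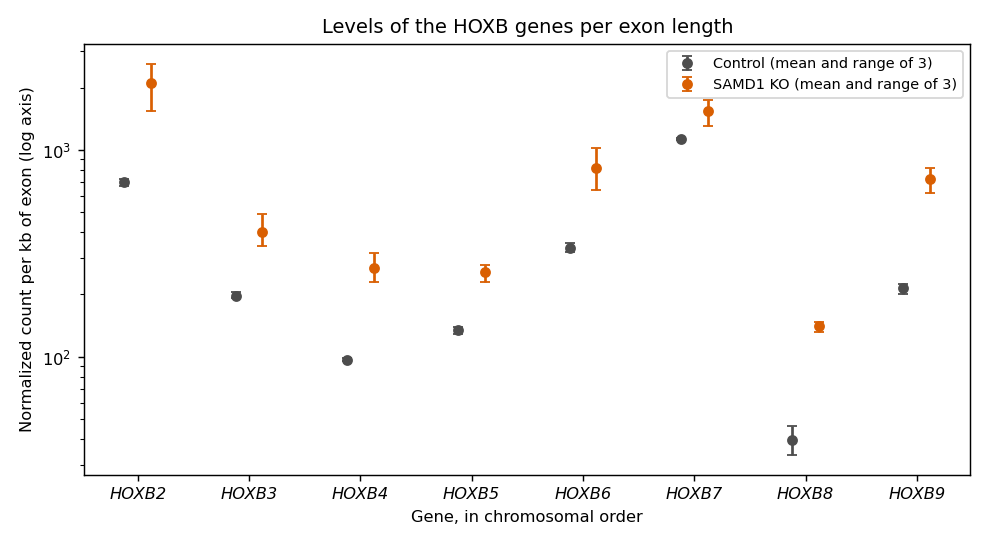
Normalized counts per kilobase of merged exons (log axis) of the 8 tested *HOXB* genes in control and SAMD1 KO cells, as the mean with the lowest and highest of 3 libraries. By the mean, *HOXB7* leads in control cells at 1132 per kb and *HOXB2* in SAMD1 KO cells at 2111 per kb, while *HOXB8* is the lowest in both.

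The make-up of the cluster's RNA shifted accordingly. On the per-kb scale *HOXB7* made up 39.7% ± 0.731 (SD, n = 3) of the members' summed level in controls and 24.9% ± 6.05 (SD, n = 3) in the clones. The share of *HOXB2* went from 24.5% ± 0.449 to 33.4% ± 4.65 and that of *HOXB9* from 7.55% ± 0.271 to 11.6% ± 0.474 (SD, n = 3 each). For each of these 3 genes the groups did not overlap. Nor did they for *HOXB4* (3.4% to 4.3%) and *HOXB8* (1.39% to 2.28%), whose shares rose. *HOXB3* (6.91% to 6.36%) and *HOXB5* (4.72% to 4.12%) had shares that fell without overlap. The shares add up to a whole, so they do not change independently. How often such shares of other genes fail to overlap was not tested. The share of *HOXB6*, 11.7% in controls and 13% in the clones, overlapped between the groups.

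Neighbouring members were also compared directly, as the log2 ratio of the higher-numbered gene to the lower-numbered one within each library. This ratio does not depend on the scaling of the libraries. From *HOXB7* to *HOXB8* it was -4.18, -3.95 and -4.39 in the controls and -3.07, -2.75 and -2.47 in the clones, a change of 1.41. From *HOXB6* to *HOXB7* it was 1.06, 0.901 and 0.988 in the controls and 0.678, -0.175 and -0.0713 in the clones, a change of -0.84. *HOXB7* thus changed less than the genes on both of its sides. In 6 of the 7 neighbouring pairs the ratios did not overlap between the groups, each with an exact two-sided permutation p of 0.1, the smallest possible (0.117 after Benjamini-Hochberg adjustment over the 7 pairs). Among the 12550 pairs of neighbouring tested genes without a *HOXB* gene, 40.2% had ratios that did not overlap in either direction, so for a single pair this is a common pattern. The remaining pair, *HOXB8* and *HOXB9*, had ratios of 2.35 to 2.69 in the controls and 2.33 to 2.59 in the clones, which overlapped (change -0.097, exact permutation p = 0.4).

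The tested genes beside the cluster had log2 fold changes between -0.10 and 0.21. They are not directly adjacent to it, and the nearer genes named below were not tested. Relative to the start site of *HOXB1*, theirs lay at -493.0 to -427.7 kb on 1 side. On the other side they lay at 300.0 to 413.8 kb, where *HOXB13* is at 197.7 kb. On the *HOXB1* side, *COPZ2*, *NFE2L1*, *CBX1* and *SNX11* had log2 fold changes of 0.21, 0.17, -0.07 and 0.07. On the *HOXB13* side, *CALCOCO2*, *ATP5MC1*, *UBE2Z* and *SNF8* had values of -0.06, -0.07, -0.10 and -0.04. None of these 8 was called, and none had a limma adjusted p below 0.05. At an unadjusted limma p below 0.05 there was 1 gene (*NFE2L1*), and edgeR and DESeq2 called 0 of the 8 as well. *SKAP1*, the nearest gene on the *HOXB1* side and below the filter, had 0 reads in each control and 2, 7 and 4 reads in the clones. *PRAC1* and *PRAC2*, which lie next to *HOXB13*, had no reads, and *TTLL6* had at most 6 reads in any library.

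**Figure D3:**
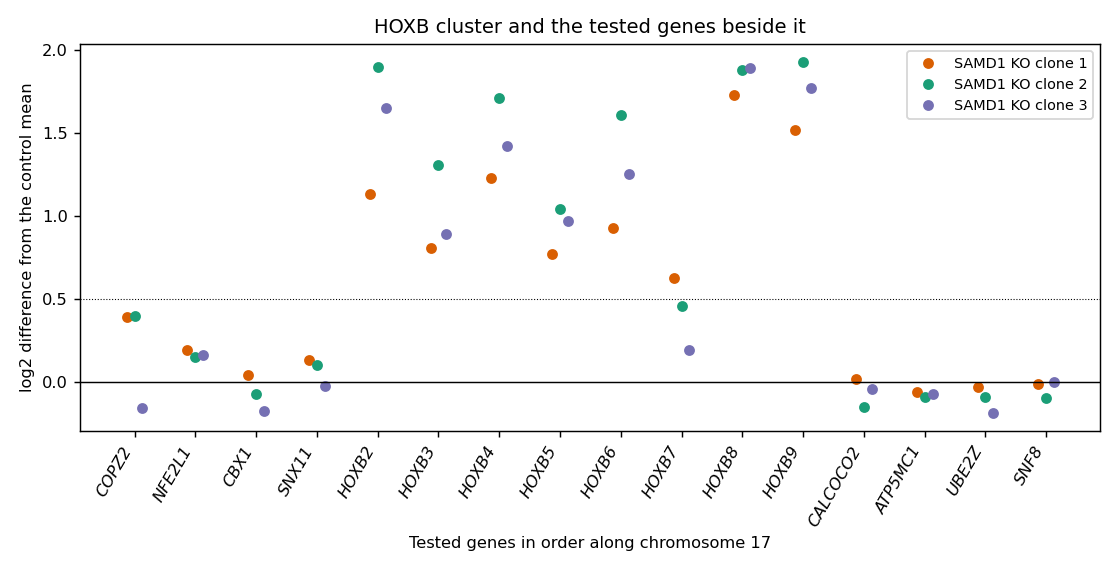
Log2 difference of each SAMD1 KO clone from the control mean for the tested genes in order along chromosome 17, with 4 genes on either side of the 8 tested *HOXB* genes; the dotted line marks 0.5. Only *HOXB* genes lie above 0.5 in any clone, clone 2 (green) is the highest in most of them, and in *HOXB7* clone 1 (orange) is.

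The other HOX clusters hold paralogues, genes that share a number and descend from a common ancestor. In the *HOXA* cluster 1 of 8 tested genes was called higher, *HOXA13* (log2 fold change 0.86, SE 0.151, limma adjusted p = 0.0124), and the median was -0.03. The *HOXC* cluster had 3 genes called higher among 8 tested, with a median of 0.47. These were *HOXC4* (1.60, SE 0.413, limma adjusted p = 0.0454), *HOXC5* (1.12, SE 0.183, limma adjusted p = 0.00936) and *HOXC8* (1.17, SE 0.254, limma adjusted p = 0.0262). *HOXC4* had at most 43 reads in any library, and leaving out a single library ended its call in 4 of 6 cases. No gene of the *HOXD* cluster passed the filter, and 6 of its 9 genes had no reads.

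Paralogue groups 8 and 9 hold the *HOXB* members with the largest log2 fold changes. *HOXC8*, called higher, had normalized counts of 92.7, 105.7 and 100.8 in the controls and 343, 194 and 173 in the clones, so that every clone lay above the controls and clone 1, the lowest clone of *HOXB8*, was the highest. *HOXC9* also had every clone above the controls, with a log2 fold change of 0.48 (SE 0.098, limma adjusted p = 0.0212), just under the cut-off. *HOXA9* had at most 4 reads in any library, *HOXD9* at most 1 and *HOXD8* none. Whether the *HOXB* genes rose more than the paralogues was not tested.

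**Figure D4:**
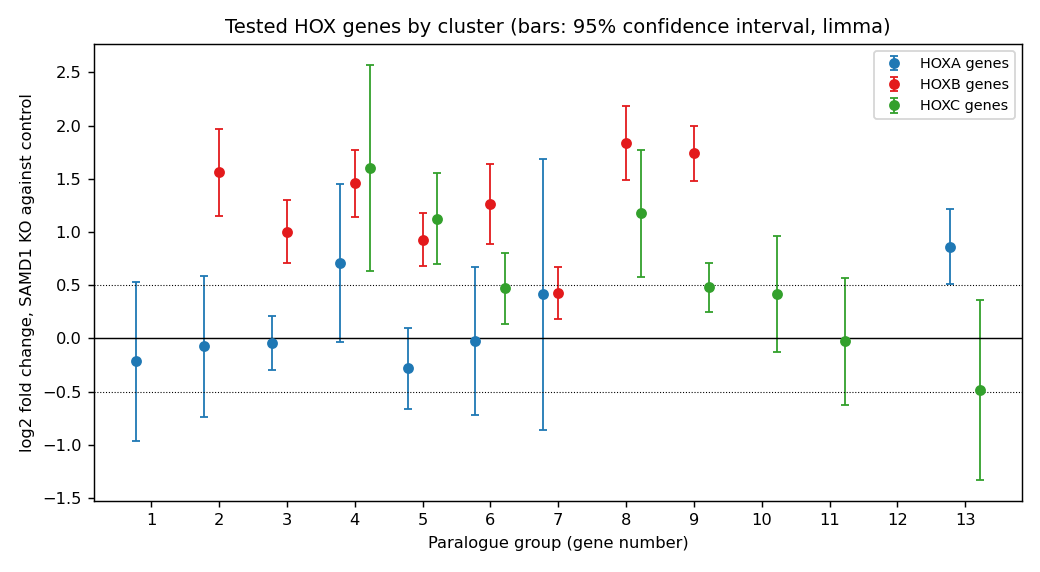
Log2 fold change between SAMD1 KO and control cells with its 95% confidence interval (limma) for the tested *HOXA* (blue), *HOXB* (red) and *HOXC* (green) genes by paralogue number, with dotted lines at 0.5 and -0.5. The *HOXB* genes other than *HOXB7* lie between 0.93 and 1.83, most *HOXA* genes lie around 0, and the *HOXC* genes run from -0.49 to 1.60.

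The partners of HOX proteins were looked at next. None of the 8 tested PBX, MEIS and PKNOX cofactor genes was called by limma, edgeR or DESeq2, and 1 (*MEIS2*) was higher at an unadjusted limma p below 0.05. *MEIS1*, a cofactor that binds DNA together with HOX proteins, had a log2 fold change of 0.25 (SE 0.141, limma adjusted p = 0.281). Of 26 tested genes known to regulate HOX clusters, which include Polycomb, Trithorax, CDX and retinoic acid pathway genes, 3 were called higher, beside the 5.77% of all tested genes, and none lower by limma, edgeR or DESeq2. At an unadjusted limma p below 0.05, a limit for which the share of all tested genes was not counted, 6 were higher and 2 lower. The 3 called genes were *RARB*, a receptor (log2 fold change 1.00, SE 0.246, limma adjusted p = 0.0398), *RARG*, another receptor (0.68, SE 0.0648, limma adjusted p = 0.00132), and *CYP26B1*, an enzyme that breaks retinoic acid down (0.62, SE 0.109, limma adjusted p = 0.0126). *RARB* lost its call in 3 of 6 fits when each library was left out in turn. Below the fold cut-off, the Polycomb gene *EED* had a log2 fold change of -0.27 (SE 0.0572, limma adjusted p = 0.0256) and *SUZ12*, of the same complex, of -0.14 (SE 0.0496, limma adjusted p = 0.11), both with every clone under every control. The demethylase gene *KDM6A* had a log2 fold change of 0.26 (SE 0.0698, limma adjusted p = 0.049). *CDX1* and *CDX4* had no reads.

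The pattern of the members over the 6 libraries was set beside that of all other genes that averaged 50 normalized counts or more. Likeness was the Euclidean distance between a gene's 6 log2 differences from the control mean and the median of those of the 8 tested *HOXB* genes. Among 11438 candidates outside the HOX clusters, the nearest were the histone gene *H2BC21* (distance 0.116), the transporter gene *SLC16A6* (0.211), the WNT ligand gene *WNT5A* (0.214), the heparan sulfate sulfotransferase gene *HS6ST3* (0.234) and the pseudokinase gene *TRIB2* (0.273). *H2BC21* had log2 differences of 0.935, 1.64 and 1.37 in the clones 1, 2 and 3, close to the 1.03, 1.66 and 1.33 of the members' median. Of the members themselves, *HOXB6* was the nearest to that median (0.164) and *HOXB7* the farthest (1.71).

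Promoter sequence could be described for *HOXB1* alone, the only 1 of the 10 members with a window in the RefSeq table used (GRCh38.p14). Its window of 300 bases around the transcription start, chr17:48530962-48531261 on the minus strand, had 58% GC, 11 CpG dinucleotides and an observed to expected CpG ratio of 0.436. The letters GCGC, the same on both strands, occurred 3 times. At least as many were found in 34.8% of the 35116 windows of the table. The members without a window were *HOXB2*, *HOXB3*, *HOXB4*, *HOXB5*, *HOXB6*, *HOXB7*, *HOXB8*, *HOXB9* and *HOXB13*.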

How the data were processed

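RNA from 3 control replicates and 3 SAMD1 KO clones of PaTu8988t cells was sequenced by the authors with a stranded, poly(A)-selected library kit. The authors aligned the reads with RNA-Star to GenCode 43 and normalized them with DESeq2, and the submitters' processing notes also name featureCounts and hg38. The deposited signal is a normalized count, the reads of a gene over the size factor of its library. A deposited table of the authors' own DESeq2 comparison (mean, log2 fold change, standard error, Wald statistic, p-value and adjusted p) was not used. No sample column was left unmapped.

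All deposited values were whole multiples of 1 step per library within 0.001 reads (100% in each library), so reads were recovered and library totals of 35589477 to 45172216 obtained. Of 20347 genes, 3871 had no reads. The 12773 genes with a mean of at least 10 were tested with limma 3.58.1 (lmFit, eBayes with trend, R 4.3.3) on log2(normalized count + 1), a scale that understates changes of low genes, with Benjamini-Hochberg adjustment over all tested genes. Calls followed the study's cut-off (log2 fold change over 0.5 in either direction, unadjusted p under 0.01). Members, gene lists and tests were chosen with earlier results of these data known. Genes named were all *HOXB* genes, *SAMD1*, called genes of the other HOX clusters and their groups 8 and 9, called cofactors and regulators with *MEIS1*, the genes beside the cluster, and the 5 genes most like the members' median. *MEIS2*, *EED*, *SUZ12*, *KDM6A* and *HOXC13* are exceptions, named once their values had been seen, and some genes that the rule covers are not reported here. Replicates differed by more than counting noise, and p-values measure only the spread between these libraries. Exons and the order of neighbouring genes came from GENCODE 44 (GRCh38), promoter windows from RefSeq. Alternatives were other pseudocounts, filters and scalings, edgeR 4.0.16 and DESeq2 1.42.0 on recovered reads, an adjusted p, the replicate block and leaving out each library. Other steps used Python 3.11.15, numpy 2.4.6, pandas 2.3.3 and SciPy 1.17.1.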

Additional observations from a re-analysis of the deposited data

How the results depend on the processing

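Among the *HOXB* genes, 7 were called higher and none lower under each alternative listed above, except without SAMD1 KO replicate 3. There 8 were called (range 7 to 8 over the 6 fits without 1 library), because *HOXB7* was added. The exact permutation test could call none of them, since 3 against 3 libraries cannot give a p below 0.1. Over 15 alternatives the log2 fold change ran from 1.39 to 1.77 for *HOXB2*, 0.85 to 1.10 for *HOXB3*, 1.33 to 1.57 for *HOXB4*, 0.87 to 1.01 for *HOXB5*, 1.09 to 1.43 for *HOXB6*, 0.33 to 0.54 for *HOXB7* (adjusted p up to 0.146), 1.72 to 1.95 for *HOXB8* and 1.64 to 1.85 for *HOXB9*. Among the genes beside the cluster, 1 (*SKAP1*, 2.20 on the log2 scale) was called without a filter, because it is then tested. Of the *HOXC* genes, 1 was called with a mean of at least 50, since only 4 are then tested, and 2 to 4 were called higher and 0 to 1 lower without 1 library (*HOXC13* fell without SAMD1 KO replicate 1, and the cause was not tested). The number of neighbouring pairs with ratios that did not overlap was 6 to 7 without 1 library, an alternative added after seeing the data. Rescaling by the 75th percentile shifted the median of all genes by 0.0191. With the replicate number as a block, 7 *HOXB* genes were called, and 725 genes higher and 259 lower over all tested genes, against 737 and 266 without it. Whether the numbers pair the samples could not be decided from the values. Deviations of same-numbered libraries correlated at 0.039, 0.134 and 0.032, and those of differently numbered ones at -0.074 to 0.036. Every library correlated best with its own number except control replicate 3 (0.036 with SAMD1 KO replicate 1). Counting noise is at least as large as the spread among the controls for *HOXB4*, *HOXB5* and *HOXB7*. It is a large part of that spread for *HOXB2*, *HOXB3*, *HOXB6*, *HOXB8* and *HOXB9*, while *HOXB1* and *HOXB13* are at the limit of detection.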
